A study of Mus musculus with 11 samples.

Results

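GTTG is the identifier of the tumour cell line that held the second highest number of reads among mouse pancreatic ductal adenocarcinoma (PDAC) lines that had been tagged with barcodes, pooled and recovered from the lung. Its members were chosen by summed read counts, and are all barcodes whose first 4 letters are GTTG, after listings with an undetermined base were dropped and the reads of each identifier were summed over all 11 libraries. This gave 13269 listings of 7420 distinct barcodes, out of 135360 listings of 105528 distinct barcodes in the series. The identifier was put forward with its larger share of reads after 6-hydroxydopamine already known, so its share is described here without a test. GTTG had 28300061 reads, or 23.8% of all reads, between AACC above it with 59984462 and CCTT below it with 5773051, among 243 identifiers. That the 4 leading letters stand for a line of the pool is read from the layout of the barcode, and the name of the line was not used here.

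The lungs came from 129/Bl6 F1 mice, syngeneic hosts, pretreated with vehicle (6 samples) or with 6-hydroxydopamine, 6-OHDA (5 samples). All mice then received the same barcoded PDAC pool through a vein, and lung metastases were analysed 3 weeks after transplantation. No label ties a library to a mouse of its own, so a p-value here reflects the spread of these libraries, some of which may be technical. The amplified cassette holds an sgRNA position next to the barcode, and no guide identity or spike-in name was used here, so numbers of tumour cells are not given.

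Sympathetic nerves release noradrenaline and neuropeptide Y onto blood vessels, airways and nearby cells. The toxin 6-OHDA enters their endings through the noradrenaline transporter and destroys them. Cells injected into a vein lodge in the lung capillaries, and only some survive and grow into colonies. A heritable DNA barcode marks the descendants of a tagged cell, so that the number of barcodes describes how many tagged cells founded colonies, and the reads of a barcode describe how large its colony is relative to the rest of the library. Where tagged cells divided before injection, cells with the same barcode can reach several lungs, or the same lung more than once.

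Each GTTG barcode has 20 letters, with the identifier first and then 12 variable letters separated by a fixed G at positions 8, 12, 16 and 20. The following 8 barcodes are shown because they recurred most, as colonies in 9 to 11 samples, and their values are given further on. Of the 18 barcodes found in 9 samples, the 3 with the most reads were taken (R6 to R8). Capitals mark the identifier.
Recurring barcode R1: GTTGgtggtgggtccgaggg
Recurring barcode R2: GTTGtgggattgctggatag
Recurring barcode R3: GTTGtatgttcgtaagatgg
Recurring barcode R4: GTTGggtgtaaggtaggagg
Recurring barcode R5: GTTGgtagagtgatcgttgg
Recurring barcode R6: GTTGgcaggacgtcaggtgg
Recurring barcode R7: GTTGgtgggtcgcacgcagg
Recurring barcode R8: GTTGagggggtgatggcgtg

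The next barcodes are shown because each was the largest GTTG colony of a sample. In vehicle sample 1 that barcode was R2.
Largest in vehicle sample 2: GTTGtacgatagggagtctg
Largest in vehicle sample 3: GTTGtgcgtgtgcgtggcag
Largest in vehicle sample 4: GTTGagagttagaatggatg
Largest in vehicle sample 5: GTTGgtagagggtgaggggg
Largest in vehicle sample 6: GTTGggtgcgggtatggtag
Largest in 6-OHDA sample 1: GTTGtatggttgagcgtcgg
Largest in 6-OHDA sample 2: GTTGggtgtacggtcgaggg
Largest in 6-OHDA sample 3: GTTGtcagcacgtgtgaggg
Largest in 6-OHDA sample 4: GTTGgcgggctgacagtacg
Largest in 6-OHDA sample 5: GTTGatggtcagccagcatg

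Over the 3688 GTTG barcodes that formed a colony in any sample, the 12 variable positions held 22.7% A, 17.8% C, 29.7% G and 29.8% T. The 7653 colony barcodes of AACC had 21.1% A, 17.3% C, 27.8% G and 33.7% T at the same positions. Among GTTG colonies the GC content of the variable letters had little relation to colony size. Spearman's correlation over the colonies of a library, which share that library's amplification, ran from -0.13 to 0.04, with a median of -0.03 over the 11 libraries.

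Libraries held 6436469 to 15665492 reads, and every library was thinned at random to 6436469 reads before colonies were counted. A colony is a barcode with at least 10 thinned reads, which equals 1.55 RPM, or reads per 1000000 reads of the library. A count of 0 allows up to 0.466 RPM, counting error only, since PCR reads carry no molecular identifiers. Before thinning, 9139 of the GTTG listings had 10 or more reads, and after thinning there were 8906 GTTG colonies. Of the 7420 distinct barcodes, 3732 were never a colony. The listings under 10 reads numbered 4130 and held only 0.0166 to 0.0913% of the line's reads in a library. Among the 9139 listings, 24 lay 1 base from a GTTG barcode with at least 10 times as many reads in the same library, and 13 shared their last 16 letters with a barcode of another identifier there.

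GTTG held a small part of most vehicle libraries and about 3 times as much, by geometric mean, of the 6-OHDA libraries. In vehicle the share of reads was 3.93% at the lowest, 8.88% at the median and 35.3% at the highest. The 6-OHDA samples 1 to 5 had 33.8%, 22.8%, 33.4%, 31.4% and 35.4%. Vehicle sample 4 had the 35.3%, within the 6-OHDA range, and the other 5, at 3.93 to 18.8%, lay below every 6-OHDA sample. The means were 13.5 ± 11.9% in vehicle (SD, n = 6) and 31.4 ± 4.99% in 6-OHDA (SD, n = 5), a ratio of geometric means of 3.05. Shares of a library add up to a fixed total, so the share of GTTG cannot be read as a number of cells.

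The larger share went with more GTTG colonies and not with a larger mean colony size in RPM. On the log2 scale the share held in colonies differed by 1.61 between the groups, as 6-OHDA minus vehicle. By arithmetic this is the sum of a difference of 1.99 in colony number and of -0.38 in mean colony size. The same sum was 0.80 and -1.17 for AACC, and 0.77 and -1.32 for CCTT. All 3 lines thus had higher geometric mean colony numbers in 6-OHDA samples, and in AACC and CCTT a lower mean size in RPM more than offset them. The sign of the change in mean size of GTTG depended on the scale, as given further on.

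The number of GTTG colonies in vehicle samples 1 to 6 was 125, 235, 960, 1216, 77 and 226. It was 1640, 860, 1273, 728 and 1566 in 6-OHDA samples 1 to 5. Vehicle samples 1, 2, 5 and 6 lay below every 6-OHDA sample, vehicle samples 3 and 4 lay within the 6-OHDA range, and 3 of the 5 6-OHDA samples lay above every vehicle sample. The means were 473 ± 487 (SD, n = 6) and 1213 ± 409 (SD, n = 5). Fitted over 38 identifiers with edgeR's quasi-likelihood test, the log2 change of GTTG was 1.36 with an SE of 0.53, and it did not pass (edgeR adjusted p = 0.178). In that fit 0 of the 38 identifiers, 0%, were called, 5 had an unadjusted p under 0.05, and the median log2 change was 1.11. GTTG had the seventh highest change. Colony number is a component of the share by which GTTG was put forward, so its p-values are no independent support. DESeq2 called 0 with equal size factors and 3, all lower, with its own. Without vehicle sample 4, the vehicle library with the highest GTTG share, the change of GTTG was 1.90 and passed (edgeR adjusted p = 0.0066). That fit called 4 of 37 identifiers, 3 of them higher. Without any one of the other 10 samples the change of GTTG did not pass. It went down to 1.14 without vehicle sample 5 (edgeR adjusted p = 0.301) and 1.16 without vehicle sample 1 (edgeR adjusted p = 0.274).

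Within each group, libraries with more reads before thinning tended to have more GTTG colonies after it. Vehicle samples 3 and 4, with 15665492 and 13410390 reads, had the most of the vehicle group, and vehicle sample 5, with 6436469 reads, the fewest. In the 6-OHDA group samples 2 and 4 were the shallowest, with 7386328 and 9560734 reads, and had the fewest colonies. In vehicle samples 3, 4 and 5 AACC had 1478, 1399 and 494 colonies, and CCTT had 1001, 1073 and 449. Among libraries of similar depth, vehicle samples 1, 2 and 6 had 8061463 to 9970983 reads and 125 to 235 GTTG colonies, against 860 and 728 in 6-OHDA samples 2 and 4. In the same libraries AACC had 536, 744 and 756 colonies in vehicle, against 1261 and 796 in 6-OHDA. CCTT had 426, 661 and 607 in vehicle, against 1060 and 838 in 6-OHDA, so higher numbers were not particular to GTTG. This grouping takes few libraries and leaves out vehicle samples 3 and 4, whose GTTG colony numbers lay within the 6-OHDA range. The part of depth in the colony number was not tested. When the reads of each identifier were thinned to that identifier's own smallest total, so that all samples gave the same number of GTTG reads, the log2 change was 1.29 (edgeR adjusted p = 0.117).

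GTTG colonies also made up a larger part of all colonies of a library. This part was 3.92% at the lowest, 7.35% at the median and 14.6% at the highest in vehicle. In 6-OHDA samples 1 to 5 it was 14.3%, 13.5%, 15.8%, 13.1% and 15.1%. The range in 6-OHDA was narrow, and vehicle sample 4, with 14.6%, was again the vehicle sample inside it. With TMM scaling over identifiers, which removes a change shared by most of them, the median change over identifiers fell to 0.03 and that of GTTG was 0.49 (edgeR adjusted p = 0.145).

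Whether GTTG responded differently from the lines above and below it in rank was tested on the ratio of colony numbers within each sample. This ratio is a component of the share by which the identifier was put forward, so its p-values are no independent support. There were 0.353 times as many GTTG as AACC colonies in vehicle and 0.806 times as many in 6-OHDA, by geometric mean. The log2 ratio was -1.50 ± 0.93 in vehicle (SD, n = 6) and -0.31 ± 0.17 in 6-OHDA (SD, n = 5), a difference of 1.19 with an SE of 0.39. All 5 6-OHDA samples lay above the vehicle mean, and vehicle samples other than sample 4 lay below all of the 6-OHDA group (exact two-sided permutation p = 0.0281, and 0.0338 after Benjamini-Hochberg adjustment over 6 tests). Against CCTT the log2 ratio was -1.18 ± 1.05 in vehicle (SD, n = 6) and 0.04 ± 0.27 in 6-OHDA (SD, n = 5), a difference of 1.22 with an SE of 0.44 (exact permutation p = 0.0433, adjusted p = 0.0433). All 5 6-OHDA samples lay above the vehicle mean here too. Both rest on few samples. The adjusted p against AACC rose to between 0.0514 and 0.0629 without any one of vehicle samples 1, 2, 5 and 6 or 6-OHDA samples 1, 3, 4 and 5, with differences of 0.95 to 1.21. Against CCTT it rose to between 0.0571 and 0.103 without vehicle sample 1, 2, 5 or 6 or any 6-OHDA sample, with differences of 0.95 to 1.31.

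No difference between the groups was detectable in the median size of a GTTG colony, while only 2 of 30 identifiers tested had a fitted change above 0. The median size of a GTTG colony was 93.1, 72.2, 87.2, 126.7, 119 and 83.9 RPM in vehicle samples 1 to 6. It was 98.1, 107, 109, 147 and 83.9 RPM in 6-OHDA samples 1 to 5. The groups overlapped, and the means were 97.0 ± 21.2 RPM (SD, n = 6) and 109 ± 23.4 RPM (SD, n = 5). In a limma fit over 30 identifiers the log2 change was 0.17 with an SE of 0.23 (limma adjusted p = 0.482). In that fit 11 identifiers, 36.7%, were called, all lower in 6-OHDA, the median change over identifiers was -1.13, and GTTG had the second highest value. Colony size enters the share by which GTTG was put forward, so its rank among identifiers is no independent support. The 11 calls fell to 0 in 8 of the 11 fits that left out 1 sample, namely vehicle sample 1, 2, 5 or 6 or 6-OHDA sample 1, 2, 3 or 5, and rose to 18 and 17 without vehicle sample 3 or 4. They numbered 6 without 6-OHDA sample 4. The change of GTTG depended on the minimum and the scale and passed under none of them, with 0.79 at a minimum of 3 reads, -0.02 at 30, -0.25 at 100, and 0.71 when reads were scaled by those of GATC, an identifier of uniformly small barcodes that may be a spike-in but that no label names. Since RPM values of any library have a fixed sum, the size found for one line depends on the numbers of the others.

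The comparison of median sizes with AACC and CCTT was chosen after these values were seen, and its p-values only describe that choice. In vehicle samples 1, 2, 5 and 6 the median GTTG colony was smaller than the median AACC colony, with log2 ratios of -1.92, -1.59, -1.53 and -1.64. It was -0.19 in vehicle sample 3 and 0.52 in vehicle sample 4. In 6-OHDA samples 1 to 5 the ratios were 0.53, 0.51, 0.70, 0.55 and 0.51, so that the median GTTG colony was larger than the median AACC colony in all 5. The difference between the groups was 1.62 with an SE of 0.40 (exact permutation p = 0.0195, adjusted p = 0.0292). It was 2.27 at a minimum of 3 reads and 0.80 at a minimum of 100. Against CCTT, whose median colony was smaller than that of GTTG in every sample, the difference was 1.45 with an SE of 0.39 (exact permutation p = 0.0195, adjusted p = 0.0292). At a minimum of 100 reads the latter was 0.44 (exact permutation adjusted p = 0.0671). These ratios are taken within a library, so no scaling of the library enters them. In RPM, the geometric mean of the median AACC colony was 198 in vehicle and 72.8 in 6-OHDA, a log2 change of -1.45. That of CCTT was 29.5 and 12.1, a change of -1.28, while that of GTTG changed by 0.17. On the RPM scale most of each difference in ratio thus lay in lower medians of AACC and CCTT. When reads were scaled by those of GATC, the median of GTTG changed by 0.71. The part of each line in these differences therefore depends on the scale, and it was not tested.

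Mean size, which large colonies dominate, was 387 ± 192 RPM in vehicle (SD, n = 6) and 278 ± 89.0 RPM in 6-OHDA (SD, n = 5). The log2 change was -0.38 with an SE of 0.38 (limma adjusted p = 0.343), against a median of -1.10 over 30 identifiers, of which 0, or 0%, were called and 15 had an unadjusted p under 0.05. Exact permutation per identifier also called 0. Mean size is a component of the share by which GTTG was put forward, so its place among identifiers is no independent support. When reads were scaled by those of GATC, the change of GTTG turned to 0.16. The 90th percentile of GTTG colony size was 1137 ± 660 RPM in vehicle (SD, n = 6) and 746 ± 240 RPM in 6-OHDA (SD, n = 5).

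In colonies of 1000 RPM or more, vehicle samples 1 to 6 held 22, 10, 28, 67, 13 and 31 GTTG barcodes. The 6-OHDA samples 1 to 5 held 42, 45, 60, 91 and 75. Vehicle sample 4 lay within the 6-OHDA range and the other 5 vehicle samples below it. These large colonies carried 52.1 ± 24.8% of the line's colony reads in vehicle (SD, n = 6) and 34.4 ± 13.0% in 6-OHDA (SD, n = 5). At the small end, 12.2 ± 4.0% of GTTG colonies in vehicle (SD, n = 6) and 8.51 ± 1.42% in 6-OHDA (SD, n = 5) had under 40 thinned reads. In CCTT the same class ran the other way, from a range of 13.4 to 28.0% in vehicle to 24.2 to 39.1% in 6-OHDA. The groups overlapped in GTTG and in CCTT, and these classes were not tested.

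The reads of the line were spread over more colonies in the 6-OHDA libraries. The 10 largest GTTG barcodes held 55.7%, 36.5%, 10.5%, 11.2%, 64.4% and 33.2% of the line's colony reads in vehicle samples 1 to 6. They held 10.2%, 9.94%, 14.6%, 15.4% and 6.48% in 6-OHDA samples 1 to 5. Vehicle samples 1, 2, 5 and 6 lay above every 6-OHDA sample, and samples 3 and 4 within the 6-OHDA range. The log2 change was -1.39 with an SE of 0.41 (limma adjusted p = 0.0611), against a median of -0.47 over 21 identifiers. Of these, 0, or 0%, were called and 7 had an unadjusted p under 0.05. Exact permutation per identifier called 0. GTTG had the lowest value of the 21. It passed without vehicle sample 3 (limma adjusted p = 0.0085), vehicle sample 4 (limma adjusted p = 0.00024), 6-OHDA sample 3 (limma adjusted p = 0.0444) and 6-OHDA sample 4 (limma adjusted p = 0.0253). These fits called 6, 10, 1 and 2 of 21 identifiers, in this order, all lower. The part held by the 10 largest barcodes was highest in vehicle samples 5 and 1, which had the fewest GTTG colonies. It is thus tied to colony number, a component of the share by which GTTG was put forward, and is no independent support.

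The effective colony number, the number of equally large colonies that would give the same Shannon diversity, does not rest on a fixed number of barcodes. It was 33.8, 80.9, 441, 560, 26.3 and 79.8 in vehicle samples 1 to 6. It was 746, 404, 511, 297 and 693 in 6-OHDA samples 1 to 5. Vehicle samples 1, 2, 5 and 6 again lay below every 6-OHDA sample. The log2 change was 2.24 with an SE of 0.72 (limma adjusted p = 0.0639), the highest of 21 identifiers, whose median was 1.15. Of the 21, 0, or 0%, were called, 11 had an unadjusted p under 0.05 and exact permutation per identifier called 0. The change of GTTG passed without vehicle sample 3 (2.65, limma adjusted p = 0.0057) or vehicle sample 4 (2.72, limma adjusted p = 0.0019). Those fits called 13 and 12 of the 21 identifiers, all higher. GTTG also passed with the inverse Simpson index in place of the Shannon diversity (2.14, limma adjusted p = 0.0483), where 3 of 21 were called. The effective number is tied to colony number too, so its p-values and the rank of GTTG are no independent support. The number of colonies that together hold 50% of the line's reads was 9, 19, 107, 143, 7 and 20 in vehicle samples 1 to 6, and 185, 101, 130, 73 and 166 in 6-OHDA samples 1 to 5.

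The largest GTTG colony of a sample took very different parts of the line. In vehicle sample 1 barcode R2 reached 14345 RPM and made up 16.4% of the GTTG colony reads. The largest barcode made up 10.6% in vehicle sample 2, 14.3% in sample 5, 4.38% in sample 6, 1.50% in sample 4 and 1.42% in sample 3. In 6-OHDA samples 1 to 5 it made up 2.75%, 1.13%, 4.03%, 2.08% and 0.832%. On the RPM scale the largest colonies were of similar size, at 6252 ± 4132 RPM in vehicle (SD, n = 6) and 6970 ± 4568 RPM in 6-OHDA (SD, n = 5). The barcodes that led vehicle sample 6 and 6-OHDA sample 1 were colonies in no other sample, although they reached 3950 and 9307 RPM. The barcode that led 6-OHDA sample 4, with 6530 RPM, was a colony in 8 samples.

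Barcodes of the line recurred between samples more often than those of AACC and CCTT. Of the 3688 GTTG barcodes that were colonies, 2112 or 57.3% were colonies in 2 or more samples, against 37.7% of 7653 for AACC and 33.1% of 6380 for CCTT. In 6 or more samples there were 271 GTTG barcodes, or 7.35%, against 1.82% for AACC and 1.14% for CCTT. Counted by sample, 83.1 to 92.0% of the GTTG colonies of a vehicle sample, with a median of 87.1%, carried a barcode that was also a colony elsewhere. In 6-OHDA samples 1 to 5 the part was 78.6%, 83.1%, 82.3%, 82.3% and 80.9%. Within a sample it was higher than for AACC by 19.9 percentage points on average (SD 2.48, n = 11) and than for CCTT by 26.8 points (SD 2.50, n = 11), in 11 of 11 samples each. The exact two-sided sign-flip permutation test gave p = 0.000977 in both cases, the smallest it can give, and 0.0029 after adjustment over 6 tests. Samples enter one another's recurrence and received the same pool, so the 11 differences are not independent. The lines also differed in their number of distinct barcodes and in colony size, and the part of either in recurrence was not tested. The lower values in 6-OHDA were not tested, because a sample's recurrence depends on how many colonies the other samples hold.

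Some listings were very small relative to the same barcode elsewhere. Of the 9139 listings with 10 or more reads, 75 had under 0.1% of that barcode's reads summed over all libraries. This part was highest in vehicle sample 5, with 8 of 77 or 10.4%, followed by vehicle sample 6 with 4.64% and vehicle sample 2 with 3.75%, and lowest in 6-OHDA samples 1 and 3, with 0.238 and 0.231%. Recurrence stayed 19.6 to 20.1 points above AACC, and 24.6 to 37.4 points above CCTT, over the 6 other settings of minimum, thinning, merging and removal of such listings.

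Samples shared GTTG colonies to very different degrees. The part of the smaller sample's colonies that were also colonies of the other had a median of 46.0% over 55 pairs of samples, from 12% for vehicle samples 1 and 6 to 71.2%. The medians were 20.8% for AACC and 15.8% for CCTT. For GTTG it was 41.6% within vehicle, 51.8% within 6-OHDA and 47.8% between the groups. Colony numbers differ between the groups, so these parts are described and not compared. From the numbers of barcodes seen in 1 and in 2 samples, the Chao2 formula puts the distinct GTTG barcodes that could form colonies at 5094 or more, against 14032 for AACC and 12811 for CCTT. It assumes that the samples drew from the same barcodes.

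GTTG barcodes that were colonies in more samples also had larger colonies. Colonies were pooled over all samples of both groups for this. The median size was 52.0 RPM over the 1576 colonies of barcodes seen in 1 sample. It was 71.3 RPM over the 1606 colonies of the 803 barcodes seen in 2 samples. It was 126 RPM over the 1090 colonies of the 218 seen in 5, and 205 RPM over the 553 colonies of the 79 seen in 7. The 1576 barcodes seen once held 10.5% of the line's colony reads. A larger barcode passes the minimum on reads more easily, which ties the size to the number of samples. Vehicle sample 1 was an exception, with a median of 282 RPM over its 10 barcodes seen nowhere else and 89.6 RPM over the recurring ones. In the other 10 samples the recurring colonies had the higher median. The size of a barcode in one sample told little about its size in another. Over 49 pairs of samples with at least 30 shared GTTG colonies, Spearman's correlation of sizes had a median of 0.14 and ran from -0.17 to 0.29.

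The vehicle samples held 2839 GTTG colonies of 1995 distinct barcodes, and the 6-OHDA samples 6067 colonies of 3204 distinct barcodes. The 1511 barcodes found in both groups made up 75.7% of the vehicle list and 47.2% of the 6-OHDA list. There were 1693 barcodes found in the 6-OHDA samples but not in vehicle, and 484 found in vehicle but not in 6-OHDA. AACC and CCTT had more distinct barcodes in 6-OHDA as well. AACC had 4130 in vehicle and 5479 in 6-OHDA, and the 1956 in both made up 47.4% and 35.7% of these lists. CCTT had 3392 and 4411, and the 1423 in both made up 42.0% and 32.3%. The counts that follow were made for GTTG alone, so they cannot be set against other lines or read as particular to GTTG. In all 5 6-OHDA samples 112 barcodes were colonies, of which 10 were colonies in no vehicle sample. A further look at 3 or more samples of a group and none of the other gave 180 barcodes for 6-OHDA and 2 for vehicle. The 6-OHDA samples hold more colonies, so an excess in this direction comes with their larger numbers.

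The most recurrent barcodes show how widely a colony of the same tag varied. R1 was a colony in all 11 samples. It had 396 RPM at the lowest, 1174 RPM at the median and 5027 RPM at the highest in vehicle, and 67.7, 212, 5745, 352 and 139 RPM in 6-OHDA samples 1 to 5. Its largest and smallest colonies, both in the 6-OHDA group, differed 84.8-fold, and the groups overlapped.

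R2 was a colony in 10 samples and was not found in vehicle sample 2. It had a median of 353 RPM and a highest value of 14345 RPM in vehicle, and 299, 550, 986, 5.75 and 933 RPM in 6-OHDA samples 1 to 5. The highest value came from vehicle sample 1, and vehicle sample 4 had 2.18 RPM, close to the minimum for a colony.

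R3 was not found in vehicle sample 6. It had a median of 671 RPM and a highest value of 5111 RPM in vehicle, and 435, 69.1, 1258, 1384 and 1732 RPM in 6-OHDA samples 1 to 5. Vehicle sample 1 had its largest colony, as it had for R2.

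R4 was the most even of the 8 over the 6-OHDA samples, at 1150, 1675, 1298, 1235 and 2051 RPM in samples 1 to 5. In vehicle it had a median of 205 RPM and a highest value of 2004 RPM, with 1.86 RPM in sample 5 and none found in sample 1. Of the 6 vehicle samples, sample 4 alone lay within its 6-OHDA range and the others below it. This barcode was picked for its recurrence and singled out for its evenness after the values were seen, and it was not tested.

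R5 to R8 were colonies in all 5 6-OHDA samples and in 4 or 5 vehicle samples. Their highest values were 1005 RPM for R5 in 6-OHDA sample 2, 3770 RPM for R6 in vehicle sample 6, 4251 RPM for R7 in 6-OHDA sample 1 and 1918 RPM for R8 in 6-OHDA sample 1. The samples in which the 8 barcodes were largest thus lay in either group. Each of the 8 held between 0.16 and 0.86% of the line's colony reads summed over the samples.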

How the data were processed

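Per the file headers, each sample's deposited table holds raw read counts of barcode clusters. Per the labels' protocols, spike-in cells were added to weighed tissue, and 27 PCR cycles on 32 µg of DNA amplified the cassette. The clustering tool is not given in the sources used here. The deposited cluster score was not used. The 4 listings with an N in the barcode were left out.

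Libraries were thinned at random without replacement to 6436469 reads, and a colony needed 10 reads. Colonies per identifier were tested with edgeR 4.0.16 (quasi-likelihood, equal library sizes) where some sample had 5 or more. Sizes were tested on the log2 scale with limma 3.58.1, for identifiers with 5 colonies (evenness: 20) in at least 3 samples per group. P-values were adjusted by the Benjamini-Hochberg method over all identifiers of a fit (threshold 0.05). The tests were checked on simulated data. For single values the group labels were permuted exactly (two-sided, 462 assignments). For edgeR, the SE is |log2 change|/√F. Software was R 4.3.3 with DESeq2 1.42.0, and Python 3.11.15 with scipy 1.17.1, pandas 2.3.3 and numpy 2.4.6.

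The named barcodes are the 8 that were colonies in the most samples, with ties taken by summed RPM, and the largest in each sample. The members, rules and lists were chosen with earlier results of these data known.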

Additional observations from a re-analysis of the deposited data

Results flagged for a closer look

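Of 26 groups of GTTG values examined, 4 had a sample well apart from the others, where chance flags about 1 in 20, or 1.3 here. The mean GTTG colony size was 431 RPM in 6-OHDA sample 4, above the other 6-OHDA samples. The largest GTTG colony of vehicle sample 1 had 14345 RPM, above those of the other vehicle samples. Vehicle sample 4 held 67 colonies of 1000 RPM or more, above the other vehicle samples. Colonies under 40 thinned reads made up 6.04% of the GTTG colonies of 6-OHDA sample 1, below the other 6-OHDA samples.

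Ratios of GTTG to the lines compared with it were picked out because the difference between the groups passed the exact permutation test. The log2 ratio of GTTG to AACC colonies differed by 1.19 between the groups, and that of GTTG to CCTT colonies by 1.22. The log2 ratio of median colony sizes differed by 1.62 against AACC and by 1.45 against CCTT. In RPM the median size itself changed by 0.17 in GTTG, -1.45 in AACC and -1.28 in CCTT. GTTG was put forward for its larger share after 6-OHDA, of which colony number is a component. The size ratios were chosen after the values were seen. None of these ratios is therefore independent support. The colony ratio against AACC kept its call in 3 of 11 fits with a sample left out, and that against CCTT in 2.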

How the results depend on the processing

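The difference in share of 17.9 percentage points, 6-OHDA minus vehicle, kept its direction throughout, at 15.9 to 22.2 points when each sample was left out and 16.9 to 18.4 points otherwise. The log2 change in GTTG colony number was 1.14 to 1.90 with a sample left out and 0.49 to 1.99 under the 13 other settings, none of which passed. Mean size ranged from -0.55 to -0.18 with a sample left out, and reversed to 0.16 when reads were scaled by GATC. Median size ranged from 0.06 to 0.26 with a sample left out, and reversed to -0.020 and -0.25 at minima of 30 and 100 reads and to -0.0050 (limma adjusted p = 0.986) without listings under 0.1% of their barcode's reads. The change in reads of the 10 largest barcodes was -1.67 to -1.15 with a sample left out. That in effective colony number was 1.84 to 2.72, and it passed without thinning (2.24), at minima of 3 (2.24) and 100 reads (2.24) and with the inverse Simpson index (2.14). Under these 4 settings 3 of 23, 3 of 24, 1 of 18 and 3 of 21 identifiers were called, in this order.

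The difference in colony ratio was 0.95 to 1.45 against AACC and 0.95 to 1.50 against CCTT with a sample left out, and that in median size 1.45 to 1.94 and 1.30 to 1.76. Against CCTT the latter was 0.44 at a minimum of 100 reads, which did not pass. Recurrence stayed 19.95 to 21.4 points above AACC and 27.0 to 28.3 points above CCTT with a sample left out. The cause of these shifts was not tested.

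Replicate numbers are shared by the groups, but the deviations of same-numbered samples correlated at -0.48 to 0.31, and of 5 vehicle samples 1 correlated best with its own number. With the number as a replicate block the 10 largest barcodes passed (-1.34, limma adjusted p = 0.0310), 1 of 21 identifiers against 0. The block gave 1.14 and 1.17 for the colony ratios and 1.50 and 1.30 for the median size ratios, and 5 pairs cannot give an exact permutation p below 0.0625. Identifiers called for median size numbered 11, against 0 without thinning, at 100 reads, on the GATC scale, by exact permutation or with the block, and 1 at 30 reads. They numbered 12 at 3 reads, 12 with barcodes 1 base apart merged, and 8 without listings under 0.1% of their barcode's reads.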
